A study of Mus musculus with 6 samples.

Results

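The insulin-like growth factor (IGF) system was described through 10 genes, chosen by symbol from the 57180 genes of the deposited table. They were the receptors Igf1r, Igf2r and Insr, the secreted binding proteins Igfbp2 and Igfbp4, the receptor substrates Irs1 and Irs2, and the IGF2 mRNA-binding proteins Igf2bp1, Igf2bp2 and Igf2bp3. The cells were C57BL/6 mouse embryonic stem (ES) cells with no treatment named, and RNA was sequenced in 6 libraries. The wild-type (WT) group had 3 libraries, and the other 3 came from Mpp8/Tasor double-knockout cells (dKO). MPP8, encoded by Mphosph8, and TASOR are core subunits of the HUSH complex, which silences retroelements and some genes. The labels do not say whether the dKO cells were 1 clone, nor whether replicates were separate cultures, so p-values measure the spread between these libraries, which may be technical.

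Total counts ran from 18384804 to 24910541 per library. In CPM, a gene's counts divided by the scaled size of its library and so comparable between libraries, the mean level of Mphosph8 was 128 in WT and 0.138 in dKO, and that of Tasor was 162 and 9.85. On chromosome 14, where Mphosph8 and Tasor both lie, 70.5% of 525 tested genes were lower in dKO. On chromosome Y it was 75.0% of 12 tested genes, against 16.0% of the 15177 tested genes outside chromosomes 14 and Y. No gene of the 10 lies on either chromosome. WT replicate 2 had the highest mitochondrial share of counts, 2.29% against 1.34% to 1.63% in the other 5 libraries. The ES cell label was checked with 10 marker genes, whose summed level was 2835 to 3757 CPM in WT and 2956 to 3401 CPM in dKO. Of those markers, 0 were higher and 2 were lower in dKO. Markers of other cell types differed between the genotypes. Among all tested genes, 16.4% were called higher and 17.9% lower in dKO, by the test described below. Of 12 fibroblast or feeder markers, 11 were tested, 7 were higher in dKO and 4 were not called. The summed level was 93.4 to 119 CPM in WT and 159 to 172 CPM in dKO. Vim was the largest part of it (mean 62.6 CPM in WT, 93.5 in dKO). Of 8 trophoblast markers, 7 were tested and 6 were lower, with 261 to 380 CPM in WT and 38.4 to 42.1 CPM in dKO. In WT most of this sum came from Krt8 (mean 162 CPM in WT, 10.3 in dKO) and Krt18 (96.9 and 12.0). Eomes was not called (10.2 and 9.55). Of 8 primitive endoderm markers, 6 were tested and 4 were lower, with 309 to 381 CPM in WT and 89.1 to 95.7 CPM in dKO. Most of that sum came from the basement membrane genes Lama1 (mean 225 CPM in WT, 50.1 in dKO) and Col4a1 (114 and 37.6). The other lower markers, Gata4 and Sox7, lie on chromosome 14. Gata6 and Dab2, which lie elsewhere, were not called (log2 fold change 0.54 and -0.18). Of 5 formative or primed markers, 4 were tested, 2 were higher and 1 was lower. The summed level was 669 to 722 CPM in WT and 556 to 604 CPM in dKO. Nearly all of it came from the lower gene, Dnmt3b (mean 671 CPM in WT, 534 in dKO). The higher genes were Otx2 (4.20 and 20.1) and Lef1 (1.44 and 9.27). None of these markers was at 0 in all 6 libraries. The fibroblast or feeder list moved in the direction of Igf2bp2, Igf2bp3 and Igfbp2. The trophoblast list and the summed endoderm level moved in that of Igfbp4 and Irs2. The part of these lists in the results on the 10 genes was not tested.

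IGF1, IGF2 and insulin bind the receptor tyrosine kinases IGF1R and INSR, which phosphorylate the docking proteins IRS1 and IRS2 and so recruit PI3-kinase, AKT and mTORC1. IGF2R has no kinase; it carries IGF2 and mannose 6-phosphate-tagged enzymes to lysosomes. Secreted IGFBPs hold the ligands in the extracellular fluid, and the IGF2BPs, which are unrelated to them, bind mRNAs in the cytoplasm and affect their stability, transport and translation.

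Of the 10 genes, 5 were called by edgeR's quasi-likelihood test, with p-values adjusted by Benjamini-Hochberg across the 15714 tested genes and a threshold of 0.05; among all tested genes 34.3% were called. The 3 that rose in dKO, as 16.4% of tested genes did, were Igf2bp2, Igf2bp3 and Igfbp2, and the 2 that fell, as 17.9% did, were Irs2 and Igfbp4. All 10 genes passed the filter on low counts, and the lowest estimated count of any of them was 47, for Irs1 in dKO replicate 3. The groups did not overlap in CPM for 8 of the 10 genes, as for 49.2% of all tested genes. The median log2 fold change of the 10 genes was 0.13, against -0.02 for all tested genes. With so large a background, the number called is no result about the set, and the genes are described by role. The numbers called in the lists of other genes below were not tested as sets either. In bulk RNA, fewer cells of a type and less RNA per cell cannot be told apart for any of them.

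**Figure D1:**
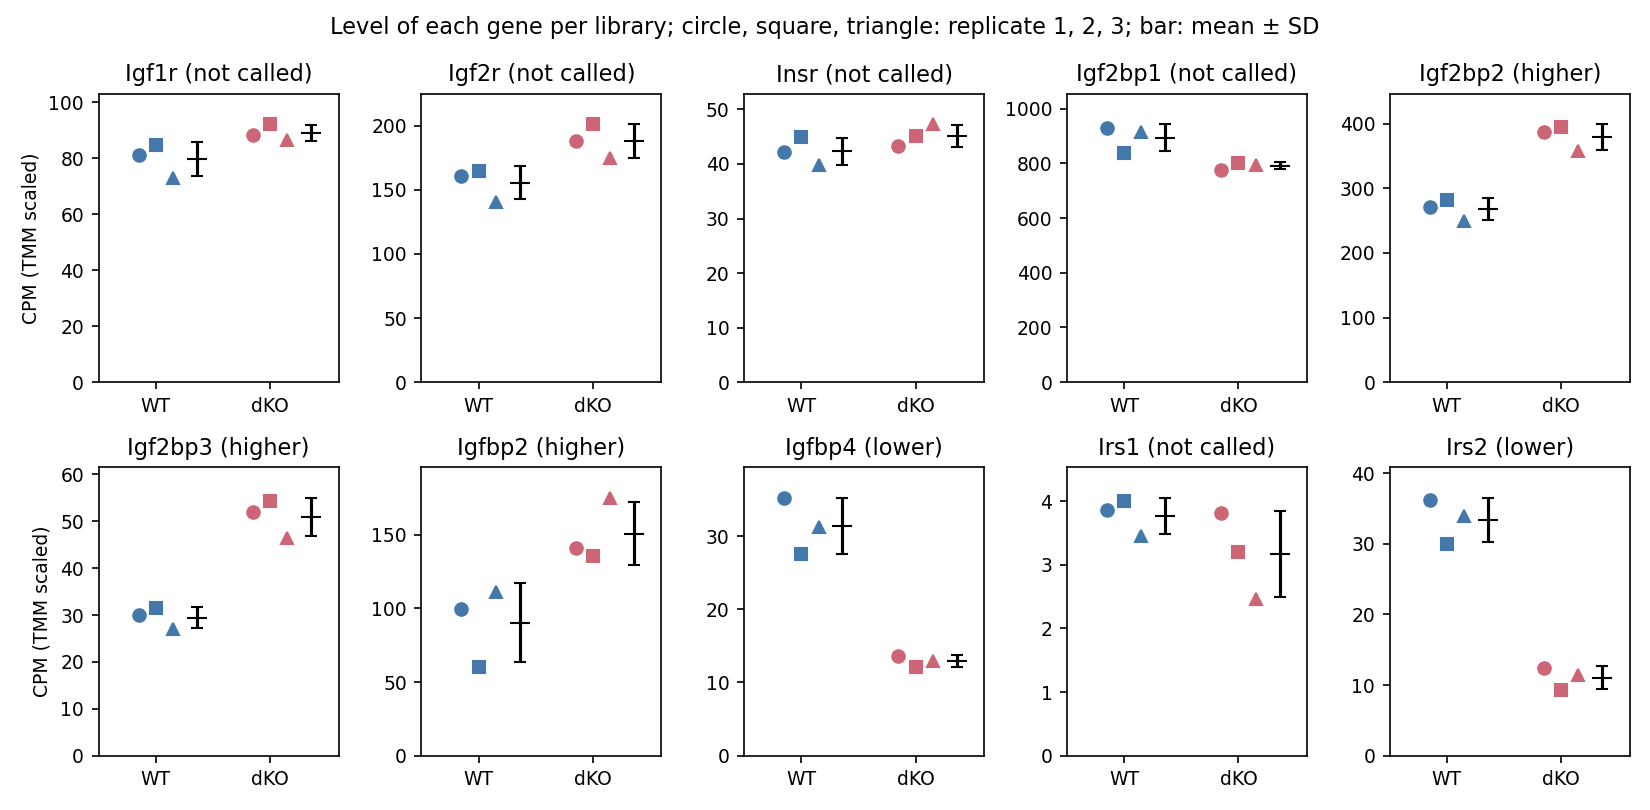
Each panel shows 1 gene, with the level in CPM on a linear vertical axis from 0; points are the 3 WT and 3 dKO libraries, with a marker shape per replicate, and bars give the mean ± SD. The groups overlap for Insr and Irs1 and for no other gene of the 10, and the dKO points of Irs2 and Igfbp4 lie far below those of WT.

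The receptors stayed within a narrow range of levels, and none of them passed the test. Igf2r, the clearance receptor for IGF2, was at 161, 165 and 141 CPM in WT replicates 1, 2 and 3 and at 188, 201 and 175 CPM in dKO. All 3 dKO libraries lay above all 3 WT libraries, and the fitted difference was 0.27 on the log2 scale (SE 0.0955, edgeR adjusted p = 0.0532). It passed the threshold in 3 of 12 alternatives, namely with library totals in place of composition scaling (adjusted p = 0.032), with the replicate number as a block (0.0104) and without WT replicate 2 (0.0135). The paternal copy of Igf2r is silenced in many mouse tissues by Airn, an antisense RNA of the same locus. Airn had estimated counts of 9, 14 and 9 in WT and 6, 11 and 2 in dKO and was not tested. No source used here says whether reads were assigned by strand, so Airn and Igf2r reads could not be separated where they overlap.

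Igf1r, the signalling receptor for IGF1 and IGF2, was at 81.3, 84.8 and 72.9 CPM in WT and at 88.4, 92.1 and 86.7 CPM in dKO. The lowest dKO library lay just above the highest WT library, with a log2 fold change of 0.16 (SE 0.0923, edgeR adjusted p = 0.212). Insr, the insulin receptor, which also forms hybrids with IGF1R, was at 42.1, 44.9 and 39.9 CPM in WT and at 43.2, 45.1 and 47.2 CPM in dKO. These groups overlapped, and the log2 fold change was 0.09 (SE 0.0989, edgeR adjusted p = 0.5). Neither receptor passed the threshold in any of the 12 alternatives. Between genes, levels are compared in TPM, a transcript level per unit of length that sums to the same total in each library. Igf1r made up 46.9% ± 4.73 (SD, n = 3) of the summed TPM of Igf1r, Insr and the insulin receptor-related receptor Insrr in WT and 50.3% ± 3.96 in dKO (exact permutation test, two-sided, p = 0.6, where 0.1 is the smallest possible with 3 against 3). Insr held nearly all of the rest, 52.8% and 49.6%.

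The receptor substrates differed from each other. Irs2 had the smallest p of the 10 genes. It was at 36.2, 30.0 and 33.9 CPM in WT and at 12.4, 9.29 and 11.5 CPM in dKO. Every dKO library lay well below every WT library, and the fitted level was 3.01-fold lower in dKO (log2 fold change -1.59, SE 0.140, edgeR adjusted p = 4.09e-05). Only 6.49% of tested genes had a larger log2 fold change in either direction. Irs2 was called lower in all 12 alternatives, with log2 fold changes from -1.68 to -1.48. Irs1, its paralog, was at 3.86, 4.0 and 3.46 CPM in WT and at 3.82, 3.20 and 2.47 CPM in dKO. The groups overlapped, and its log2 fold change of -0.25 (SE 0.218) had an edgeR adjusted p of 0.408. Estimated counts of Irs1 were 47 to 98 per library, and its SE was more than that of Irs2.

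Per length, Irs2 was the main substrate transcript in both groups, at 8.60, 8.67 and 6.88 TPM in WT and 3.29, 2.54 and 2.54 TPM in dKO. The summed level of Irs1, Irs2, Irs3 and Irs4 was 10.1 ± 1.41 TPM in WT and 4.91 ± 0.687 TPM in dKO (exact permutation p = 0.1, the smallest possible). The share of Irs2 in that sum was 79.8% ± 5.38 in WT and 56.8% ± 0.808 in dKO, and that of Irs1 was 6.17% ± 0.674 and 11.2% ± 2.67 (exact permutation p = 0.1 for each). Irs1 itself was at 0.63 ± 0.155 TPM in WT and 0.553 ± 0.165 TPM in dKO, so its share grew because the sum was smaller. Irs4, an X-linked substrate first described in human kidney cells and chosen here after its values were seen, made up 3.33% ± 1.53 and 15.2% ± 2.55 of the sum (exact permutation p = 0.1). Its own level was 0.661, 1.80 and 1.65 CPM in WT and 2.66, 2.89 and 3.15 CPM in dKO, with a log2 fold change of 1.06 (SE 0.344, edgeR adjusted p = 0.0395). Irs4 was no longer called when WT replicate 1 was left out (adjusted p = 0.0585), nor without dKO replicate 1, 2 or 3 (0.0829, 0.098 and 0.11), and held in the other 8 of 12 alternatives. The dKO libraries thus held fewer substrate transcripts, in which Irs2 had a smaller share.

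The promoters of both substrates are shown because, among the 8 genes with a promoter in the table, only Irs2 and Irs1 hold both of the motifs marked. The sequences are from RefSeq, build GRCm38.p6, 250 bases before to 50 after the gene's start, both on the minus strand and written 5′ to 3′. They lie at chr8:11008880-11009179 for Irs2 and at chr1:82291390-82291689 for Irs1. Capitals mark the E-box CACGTG, a site class bound by basic helix-loop-helix factors, and TGTTTTG, the core of insulin response elements bound by FOXO factors.
Irs2: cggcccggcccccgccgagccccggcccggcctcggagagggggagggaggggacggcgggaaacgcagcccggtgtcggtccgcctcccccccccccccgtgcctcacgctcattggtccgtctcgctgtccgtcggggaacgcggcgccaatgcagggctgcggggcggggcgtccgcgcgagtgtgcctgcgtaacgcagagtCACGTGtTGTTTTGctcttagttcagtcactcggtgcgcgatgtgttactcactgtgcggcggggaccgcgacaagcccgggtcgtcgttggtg
Irs1: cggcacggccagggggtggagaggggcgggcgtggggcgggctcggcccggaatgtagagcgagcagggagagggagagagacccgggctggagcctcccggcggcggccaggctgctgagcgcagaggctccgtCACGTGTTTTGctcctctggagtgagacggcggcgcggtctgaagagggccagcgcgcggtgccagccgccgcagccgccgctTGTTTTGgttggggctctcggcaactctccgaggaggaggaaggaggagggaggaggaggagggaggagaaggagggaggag
In Irs2 the E-box and the core stand 1 base apart, and in Irs1 they share 2 bases. An insulin response element beside an E-box has been described in the human IRS2 promoter. No window is shown for Igf2bp1 and Insr. On both strands, CACGTG was in 5 of the 9 windows of these 8 genes (1 each of Igf2r, Igf2bp3, Igfbp2, Irs1 and Irs2) and in 7.15% of 32851 promoters. The 9 windows had a G and C content of 57.3% to 76.7%, against a median of 52.7% for all promoters, and the shares were not matched for it. TGTTTTG, with its reverse complement CAAAACA, was in those of Irs1 and Irs2 and in 6.28% of all promoters. The related FOXO core TGTTTAC was in 0 of the 9 windows and in 3.65% of all promoters, and the GC box GGGCGG, left in lower case, was in 6 of the 9 and in 35.7%. Of these promoters, that of Irs2 belongs to a gene that fell and that of Irs1 to a gene that was not called.

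The libraries' profile of Irs2 was most like those of Bdh2, Marveld3 and Pnp2 among 12918 genes whose average log2 CPM reached 1. Likeness was the Euclidean distance between log2 CPM centred on each gene's mean over the 6 libraries, and it was 0.229, 0.245 and 0.271 for these genes. Pnp2 lies on chromosome 14.

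The binding proteins moved in opposite directions. Igfbp4, which binds IGFs and is cleaved by the protease PAPP-A, was at 35.2, 27.5 and 31.2 CPM in WT and at 13.7, 12.1 and 13.0 CPM in dKO. The groups were far apart, and the fitted level was 2.42-fold lower in dKO (log2 fold change -1.28, SE 0.127, edgeR adjusted p = 8.5e-05). It was called lower in all 12 alternatives. Its estimated counts were not whole in 5 of the 6 libraries, and such counts are shared between genes by a model, so its level is uncertain as that of a single gene.

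Igfbp2, the most abundant IGFBP here, was at 99.3, 60.4 and 111 CPM in WT and at 141, 136 and 175 CPM in dKO. WT replicate 2 was the low library of the WT group, and even the highest WT library lay below the lowest dKO library. The log2 fold change was 0.74 (SE 0.216, edgeR adjusted p = 0.0317), a 1.67-fold rise. This call was lost with no filter on low counts (adjusted p = 0.134), without WT replicate 1 (0.0531) and without dKO replicate 1, 2 or 3 (0.057, 0.0513 and 0.0814), and it held in 7 of 12 alternatives, over which the adjusted p ran from 0.000192 to 0.134. The log2 fold change stayed between 0.52 and 0.91 in all of them.

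In TPM, Igfbp2 was at 145, 100 and 141 in WT and at 222, 220 and 237 in dKO, and Igfbp4 at 31.1, 28.4 and 19.7 in WT and at 12.8, 15.2 and 9.30 in dKO. Igfbp2 made up 70.0% ± 6.70 of the summed TPM of Igfbp1 to Igfbp7 in WT and 89.2% ± 2.28 in dKO. The share of Igfbp4 was 14.5% ± 3.64 and 4.91% ± 1.22, and that of Igfbp3, a carrier of IGFs in serum, was 12.0% ± 3.88 and 4.37% ± 0.860. For each of these 3 shares the groups did not overlap, and the exact permutation p was 0.1, the smallest possible. The summed level of the family was 183 ± 21.2 TPM in WT and 253 ± 4.48 TPM in dKO (exact permutation p = 0.1). On the TPM scale, a larger pool in dKO was thus held more by Igfbp2, whose call on counts held in 7 of 12 alternatives. The sums were 202, 160 and 187 TPM in WT, lowest in WT replicate 2, and 249, 252 and 258 TPM in dKO. The summed level was not tested on counts.

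Beyond these, 11 other binding proteins and their regulators were listed, of which 8 were tested: 0 were higher, 3 were lower and 5 were not called, with a median log2 fold change of -0.24. The number called ran from 2 without dKO replicate 1 to 4 without WT replicate 2 or dKO replicate 3. Without dKO replicate 3 that number included 1 higher. Of all tested genes, 16.4% were higher and 17.9% lower. Igfbp3 fell from 30.7 ± 1.75 to 14.9 ± 1.55 CPM (log2 fold change -1.04, SE 0.119, edgeR adjusted p = 0.000193). Stc1, a stanniocalcin that inhibits PAPP-A and lies on chromosome 14, fell from 3.13 ± 0.353 to 0.958 ± 0.293 CPM (-1.70, SE 0.290, adjusted p = 0.00196). Igfbp6, which prefers IGF2, fell from 2.98 ± 1.15 to 1.09 ± 0.325 CPM (-1.44, SE 0.366, adjusted p = 0.0143), a call lost without dKO replicate 1 (0.0585). The TATA box TATAAA was found in the promoter of Igfbp4 alone among the 8 genes with a window, and in 13.6% of all promoters; that of Igfbp4 is at chr11:99040994-99041293 (RefSeq, GRCm38.p6, plus strand, capitals mark TATAAA).
Igfbp4: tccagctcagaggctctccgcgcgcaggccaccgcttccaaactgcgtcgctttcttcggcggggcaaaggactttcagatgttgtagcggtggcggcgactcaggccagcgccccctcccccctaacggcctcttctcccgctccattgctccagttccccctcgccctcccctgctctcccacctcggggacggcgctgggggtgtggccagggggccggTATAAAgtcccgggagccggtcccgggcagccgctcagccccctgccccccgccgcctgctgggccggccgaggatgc

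**Figure D2:**
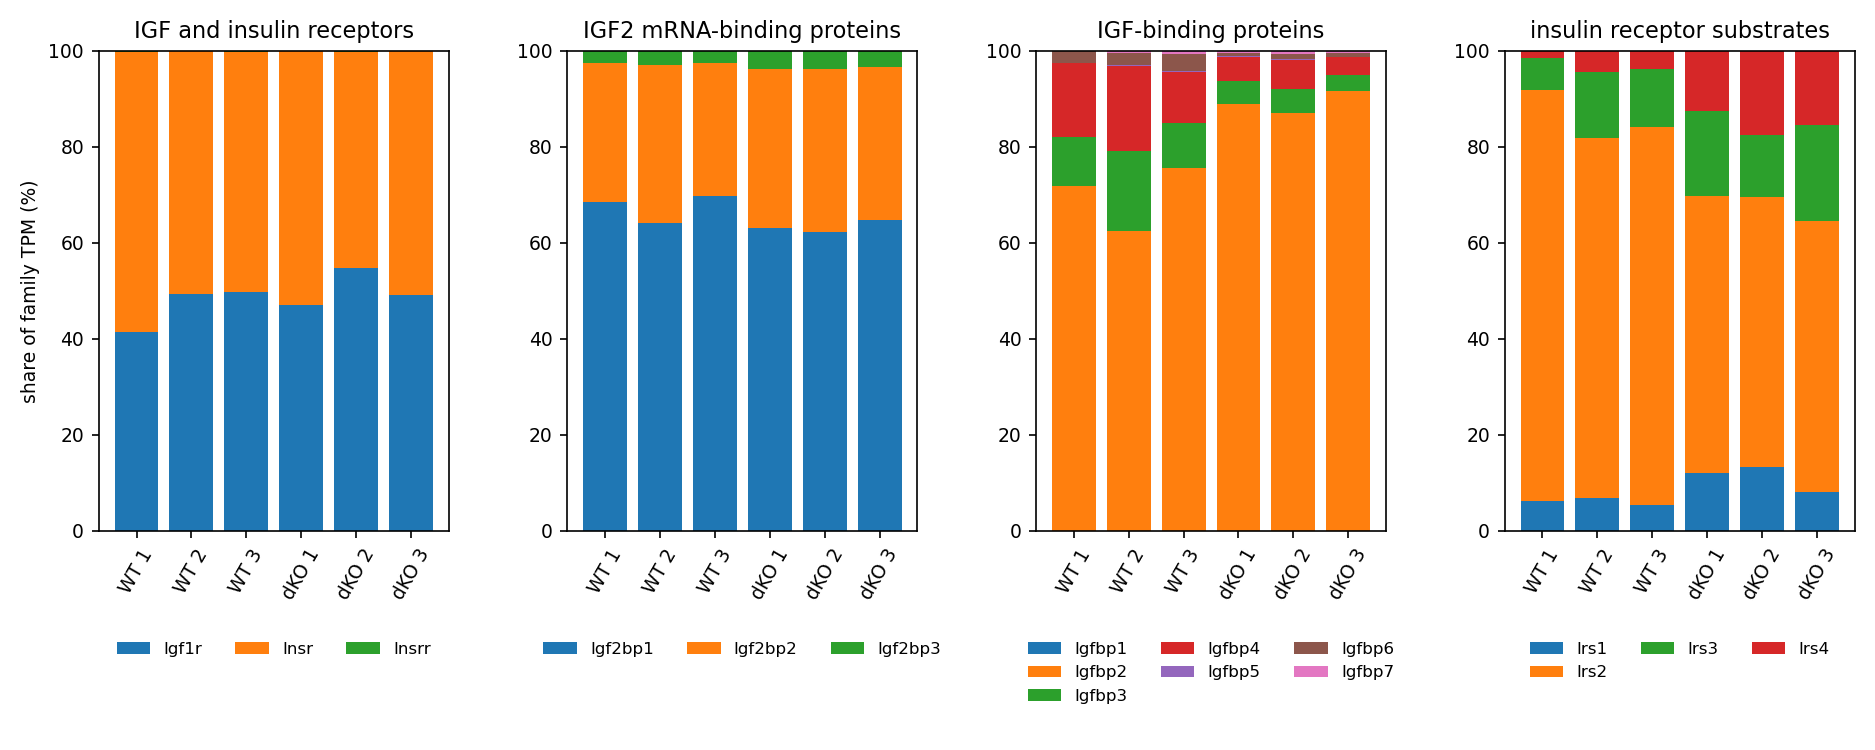
Stacked bars give the percent of each family's summed TPM held by each gene, 1 bar per library, for receptors, IGF2BPs, IGFBPs and IRS genes. In all 3 dKO libraries Igfbp2 held 87.1% to 91.6% of the IGFBP sum, against 62.5% to 75.6% in WT, and Irs2 held 56.3% to 57.7% of the IRS sum, against 75.1% to 85.7%.

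Among the IGF2 mRNA-binding proteins, 2 rose and the third gave an answer that depended on the unit. Igf2bp3 was at 29.9, 31.5 and 26.9 CPM in WT and at 52.0, 54.4 and 46.5 CPM in dKO. The groups were far apart, with a log2 fold change of 0.79 (SE 0.110, edgeR adjusted p = 0.000641). Its estimated counts were not whole in any library, so its level carries the same uncertainty as that of Igfbp4. Igf2bp2, known for its link to metabolism and muscle, was at 272, 282 and 249 CPM in WT and at 387, 394 and 357 CPM in dKO. All dKO libraries lay above all WT libraries, with a log2 fold change of 0.50 (SE 0.0868, edgeR adjusted p = 0.00205). Both were called higher in all 12 alternatives. In a limma fit on log2(TPM + 1), chosen after the data were seen, Igf2bp3 kept its call (log2 difference 0.83, adjusted p = 0.0439) and Igf2bp2 did not (0.58, adjusted p = 0.11).

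Igf2bp1, the most abundant of the 10 transcripts, was at 928, 839 and 916 CPM in WT and at 776, 803 and 795 CPM in dKO. On this scale all dKO libraries lay below all WT libraries, with a log2 fold change of -0.18 (SE 0.0823, edgeR adjusted p = 0.13), which passed the threshold in 1 of 12 alternatives, without WT replicate 2 (-0.22, adjusted p = 0.0159). In TPM the same gene was at 292, 302 and 233 in WT and at 369, 378 and 303 in dKO. On that scale all dKO libraries lay above all WT libraries, though the nearest pair was 302 in WT replicate 2 and 303 in dKO replicate 3, and the limma difference was 0.35 (adjusted p = 0.224). The direction for Igf2bp1 therefore reversed with the unit, and neither difference passed its threshold.

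Counts and TPM are linked by a length. The length behind each library's TPM was recovered as the estimated count over the TPM, scaled on 801 genes with 1 annotated transcript. For Igf2bp1 it was 5215, 5382 and 5548 bases in WT and 3790, 3945 and 4007 bases in dKO. The dKO lengths were all shorter than the WT lengths, with means of 3914 ± 112 and 5382 ± 166 bases and a ratio of 0.727 (exact permutation p = 0.1, the smallest possible). Among 10077 genes with at least 100 counts in each library, 0.923% had a ratio as low, 6.48% were shorter in dKO without overlap, and the median ratio was 0.999. For the other 9 genes the groups overlapped. Irs2 and Irs1, with 1 annotated transcript each, gave ratios of 0.996 and 0.996. Their implied lengths in WT were 6855 and 10060 bases on average, above the deposited 6323 and 9144. The lengths in bases are therefore approximate, and the groups are compared by their ratio. For Insr the length varied within WT from 4044 to 6748 bases, so its TPM was less even than its CPM. GENCODE M21 lists 1 coding Igf2bp1 transcript of 8378 bases, of which 6337 are 3′ untranslated region (UTR), and 4 noncoding ones of 576 to 1108 bases. Which transcripts carried the difference was not tested.

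**Figure D3:**
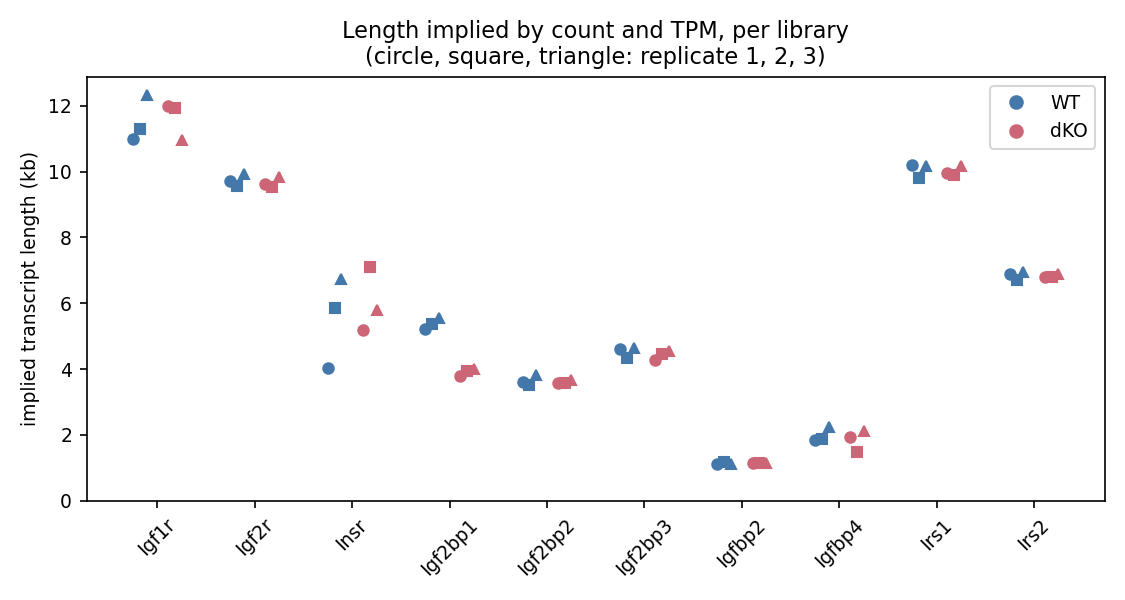
The vertical axis gives the transcript length implied by count and TPM, in kilobases on a linear scale from 0, for each of the 10 genes; points are the 3 WT and 3 dKO libraries, with a marker shape per replicate. Igf2bp1 is the only gene of the 10 whose dKO points all lie below its WT points, with a ratio of means of 0.727.

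The share of Igf2bp1 in the summed TPM of the 3 IGF2BP genes was 67.5% ± 3.04 in WT and 63.4% ± 1.3 in dKO, that of Igf2bp2 29.9% ± 2.75 and 33.0% ± 1.04 (exact permutation p = 0.2 for each), and that of Igf2bp3 2.65% ± 0.294 and 3.61% ± 0.231 (exact permutation p = 0.1). With counts per kilobase of a fixed length, the share of Igf2bp1 was 58.6% ± 2.65 in WT and 46.4% ± 1.46 in dKO, and that of Igf2bp2 37.7% ± 2.36 and 47.8% ± 1.18. On both scales Igf2bp3 was the smallest share and Igf2bp1 the largest in WT, while in dKO the means of Igf2bp1 and Igf2bp2 lay close with counts per kilobase: Igf2bp2 was the larger in dKO replicates 1 and 2 and Igf2bp1 in dKO replicate 3.

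Transcripts of the IGF2BP genes are known targets of let-7, a microRNA family held low in ES cells by LIN28. The mature mouse let-7a (RefSeq) is shown with its seed, bases 2 to 8, in capitals, above sites in 3′ UTRs of GENCODE M21 with the letters CTACCTCA in capitals, the seed match followed by A. Each site is given with the 14 bases before it.
mmu-let-7a-5p: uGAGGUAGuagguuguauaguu
Igf2bp1 site 1: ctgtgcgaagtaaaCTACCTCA
Igf2bp1 site 2: agcagtgctattaaCTACCTCA
Igf2bp1 site 3: tataaatggatgaaCTACCTCA
Igf2bp2: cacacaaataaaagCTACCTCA
Igf2bp3: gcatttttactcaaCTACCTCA
Irs2: aaactaccacagtcCTACCTCA
The longest annotated UTR of 7 of the 10 genes held such a site, against 3.54% of 21173 genes and 5.82% of those with a UTR of 1000 bases or more. These 7 UTRs had 1304 to 7267 bases, against a median of 1084 for all genes, and the shares were not matched further for length. Igf2bp1 had 3, at bases 1715, 4136 and 4730 of its UTR, and Igf1r, Igf2r, Insr, Igf2bp2, Igf2bp3 and Irs2 had 1 each. Igfbp2, Igfbp4 and Irs1 had 0. The genes with a site included ones that rose, fell and were not called. The mRNA values say nothing of let-7 itself, which was not measured.

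The promoter of Igf2bp3, which rose, is shown with its 2 copies of the E-box in capitals; that of Igf2r, which was not called, also holds 2 copies, and neither holds TGTTTTG (RefSeq for Igf2bp3, GRCm38.p6, chr6:49214905-49215204, minus strand).
Igf2bp3: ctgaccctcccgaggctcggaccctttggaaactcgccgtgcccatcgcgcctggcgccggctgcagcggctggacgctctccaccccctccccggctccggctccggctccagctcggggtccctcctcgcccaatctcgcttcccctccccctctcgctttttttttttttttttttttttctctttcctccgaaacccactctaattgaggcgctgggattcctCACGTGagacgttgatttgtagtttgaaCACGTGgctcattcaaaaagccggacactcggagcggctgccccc

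A list of 8 genes was drawn around the complex that LIN28 and IGF2BP1 share with other RNA-binding proteins. Of these 8, 0 were higher, 3 were lower and 5 were not called, with a median log2 fold change of -0.25. The list also holds Hmga1, which encodes a chromatin protein and was not called (-0.19). Lin28a, the let-7 antagonist, fell by 0.41 on the log2 scale (SE 0.0765, edgeR adjusted p = 0.00317). Hnrnpu and Syncrip, RNA-binding proteins of that complex, fell by 0.46 and 0.47. Of 8 transcripts described as IGF2BP targets, 3 were higher, 4 were lower and 1 was not called, with a median of -0.35. They included Cd44, a hyaluronan receptor, which rose from 2.40 ± 0.485 to 7.59 ± 0.821 CPM (log2 fold change 1.65). Hmga2, a chromatin protein that is also a let-7 target, fell by 0.92 and Actb, the cytoplasmic actin, by 0.45. The number called was 4 of 8 without dKO replicate 1 or 2. Both lists stand beside 16.4% higher and 17.9% lower among all tested genes.

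In order of mean TPM, the WT levels were Igf2bp1 276, Igfbp2 129, Igf2bp2 124, Igf2r 26.9, Igfbp4 26.4, Insr 13.4, Igf1r 11.7, Igf2bp3 10.97, Irs2 8.05 and Irs1 0.63. In WT, the neighbours Igfbp2 and Igf2bp2, Igf2r and Igfbp4, Insr and Igf1r, Igf1r and Igf2bp3, and Igf2bp3 and Irs2 overlapped in their ranges over libraries. In dKO the first 4 were Igf2bp1 350, Igfbp2 226, Igf2bp2 183 and Igf2r 33.8, with no overlap between neighbours. They were followed by Igf2bp3 20.1, Igf1r 13.2, Insr 13.1, Igfbp4 12.4, Irs2 2.79 and Irs1 0.553, of which Igf1r and Insr, and Insr and Igfbp4, overlapped. Igfbp4 had rank 5 in WT and rank 8 in dKO, and Igf2bp3 had rank 8 in WT and rank 5 in dKO.

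**Figure D4:**
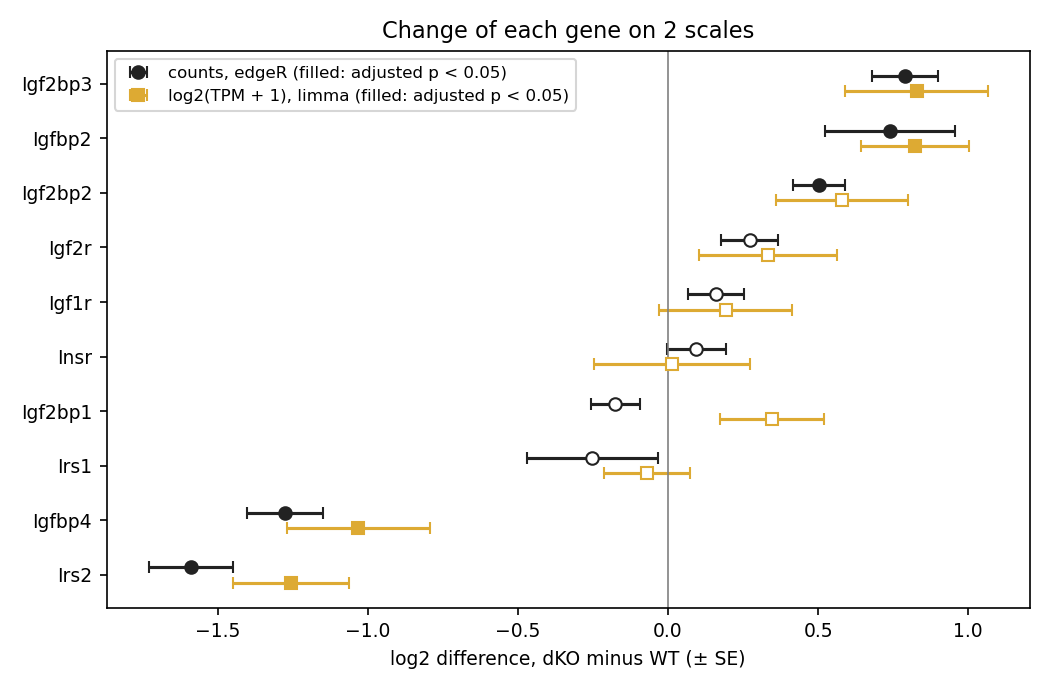
The horizontal axis gives the difference of dKO minus WT for each of the 10 genes on the log2 scale, from edgeR on counts (circles) and from limma on log2(TPM + 1) (squares), with bars of 1 SE and filled symbols for an adjusted p under 0.05. Irs2 (-1.59 on counts) and Igfbp4 (-1.28) lie farthest below 0 on both scales, and Igf2bp1 lies below 0 on counts (-0.18) and above it on TPM (0.35).

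The authors' deposited table gave log2 fold changes of -1.58 for Irs2, -1.26 for Igfbp4, 0.80 for Igf2bp3, 0.75 for Igfbp2 and 0.52 for Igf2bp2, with adjusted p-values from 1.79e-19 for Irs2 to 0.00132 for Igfbp2. In the same deposited table Igf2r had an adjusted p of 0.0599, and those of Igf1r, Insr, Igf2bp1 and Irs1 were 0.286, 0.581, 0.207 and 0.614.

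Of the ligands, Igf2 was the only one tested. It was at 212, 193 and 230 CPM in WT and at 6.29, 6.76 and 6.67 CPM in dKO, and so fell by 5.01 on the log2 scale (SE 0.113, edgeR adjusted p = 4.515e-08). Igf1 had estimated counts of 7, 7 and 3 in WT and 5, 10 and 3 in dKO. Ins2, an insulin gene, had 1 count in WT replicate 2 and 0 elsewhere, and Ins1 had 0 in every library.

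Of 16 adaptors and attenuators that act at the receptors, 15 were tested, 2 were higher, 3 were lower and 10 were not called, with a median log2 fold change of -0.23. Grb10, an imprinted adaptor that restrains IGF1R and INSR, fell from 245 ± 25.8 to 107 ± 8.43 CPM (log2 fold change -1.19, SE 0.104, edgeR adjusted p = 3.87e-05). Sh2b2, an adaptor of the insulin receptor, rose by 0.61 on the log2 scale, and Grb2 and the phosphatase Ptpn11, which link receptors to RAS, fell by 0.29 and 0.27. The calls of Sh2b2 were lost without dKO replicate 1 or 3 (adjusted p = 0.0567 and 0.0769), and those of Grb2 and Ptpn11 under several alternatives each, with adjusted p up to 0.15 and 0.148 without dKO replicate 1. The number called in the list ran from 1 without dKO replicate 1 to 8 without WT replicate 2. Over all tested genes, 34.3% were called.

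Of 21 genes of the PI3-kinase and AKT branch, 4 were higher, 3 were lower and 14 were not called, with a median log2 fold change of -0.09. Inpp5d, the lipid phosphatase SHIP1, rose from 67.3 ± 1.87 to 144 ± 4.58 CPM (log2 fold change 1.10, SE 0.0811, edgeR adjusted p = 1.46e-05). Its relative Inppl1, which encodes SHIP2, rose by 0.47, the catalytic subunit gene Pik3cd by 0.54 and the forkhead factor gene Foxo6 by 1.19. The number called ran from 5 without dKO replicate 1 or 3 to 11 without WT replicate 2. For this list and the next, the share called over all tested genes was 34.3%. Of 13 genes listed for mTORC1, 2 were higher, 2 were lower and 9 were not called, with a median of 0.04. Rictor, a subunit of mTORC2, was among those 9 (log2 fold change -0.23). Tsc1 and Deptor, both restraints on mTOR, rose by 0.39 and 0.50, and Rheb, its activator, and Rps6kb1, a kinase it acts on, fell by 0.48 and 0.45. The calls of Rheb and Rps6kb1 were lost without dKO replicate 1 (adjusted p = 0.05002 and 0.0526), where the list had 2 called.

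Of 13 genes listed as FOXO targets, 6 were lower, 1 was higher and 6 missed the threshold, with a median log2 fold change of -0.33. Bcl2l11, which encodes the cell death factor BIM, fell from 55.7 ± 1.22 to 33.4 ± 1.42 CPM (log2 fold change -0.74). The repressor gene Bcl6 fell by 1.16, the stress gene Gadd45a by 0.87 and the cell-cycle inhibitor gene Cdkn1b by 0.60. The number called ran from 5 without dKO replicate 2 or 3 to 10 without WT replicate 2 or with the replicate block. Across all tested genes, 16.4% were higher and 17.9% lower.

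**Figure D5:**
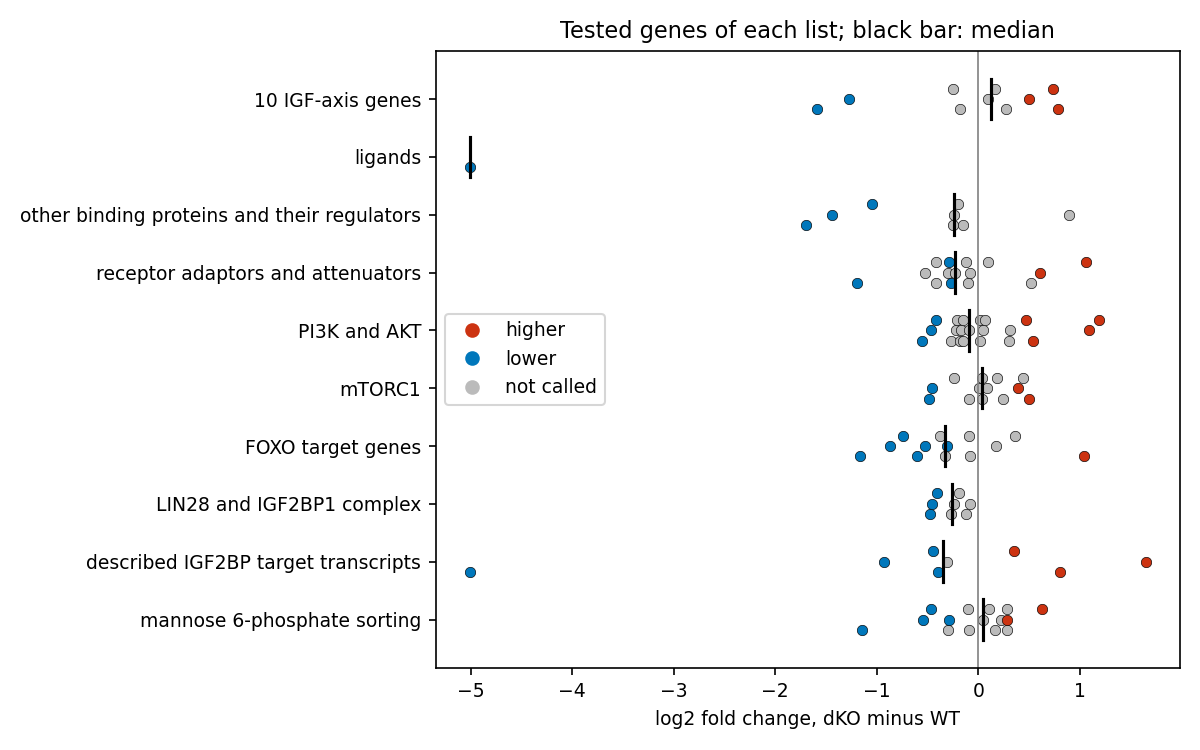
Each row is a list of genes, each point is the log2 fold change of dKO over WT of 1 tested gene, colours separate higher, lower and not called genes, and black bars give the median of the list. Igf2, at -5.01, lies far to the left in the ligand and the IGF2BP target rows, and the medians of the other rows lie between -0.33 and 0.13 beside the -0.35 of the IGF2BP target row.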

How the data were processed

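Per the labels' protocols, RNA of flash-frozen cells was extracted with Trizol, and libraries were built with a TruSeq RNA kit. HISAT2 2.1.0, RSEM, FastQC, DESeq 1.26.0 and build GRCm39 are listed in the submitters' processing notes, with no role for any. The annotation release was not given there. Per the file headers, the authors deposited 1 table of estimated counts, TPM per library and per group, a gene length in bases, and their own comparison as a fold (ratio), a log2 fold, a p-value and its adjusted form. Those values are printed only where that deposited table is named. Of the estimated counts above 0, 24.6% were not whole, compared exactly as printed.

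Estimated counts were rounded and 15714 of 57180 genes kept with filterByExpr; 525 rows carry no gene symbol. edgeR 4.0.16 (R 4.3.3) gave TMM scaling and a robust quasi-likelihood test on genotype only, with Benjamini-Hochberg adjustment over all tested genes and a threshold of 0.05. SEs were derived as the absolute log2 fold change divided by the root of F. The common biological coefficient of variation was 0.156. Alternatives were RLE factors, library totals, DESeq2 1.42.0, no filter, a replicate block, leaving out chromosomes 14 and Y, leaving out each library, and, added after seeing the data, limma 3.58.1 on log2(TPM + 1). Floors of 3 counts cover counting error only. Exact permutation tests used SciPy 1.17.1, two-sided.

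Chromosomes came from GENCODE M21 (GRCm38, not the authors' build) for 51933 gene IDs; promoters and let-7 came from RefSeq. The genes and lists were chosen with earlier results of these data known. Named genes are all 10, the targeted genes, the ligands, up to 4 called genes with the smallest p in each other list, and the 3 nearest in pattern to the gene with the smallest p; any other is named as chosen after its values were seen. Some genes that this rule names are not reported here.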

Additional observations from a re-analysis of the deposited data

How the results depend on the processing

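Across the 12 alternatives of the count test, Irs2, Igfbp4, Igf2bp2 and Igf2bp3 were called in all, Igf1r, Insr and Irs1 in none, and no gene of the 10 changed sign. The number of the 10 called ran from 4 to 7, and was 4 with no filter, 6 with library totals and 7 without WT replicate 2. All genes called ran from 3586 to 6828 when 1 library was left out, and genes called lower from 1843 to 3468; the lowest values were without dKO replicate 1 and the highest without WT replicate 2. The balance of calls turned with the scaling, from 2578 higher and 2813 lower to 3034 and 2393 with library totals and 1453 and 1051 with limma on TPM. Whether replicate numbers pair the samples was not settled. Deviations from the group mean correlated at -0.08, 0.27 and 0.33 for same-numbered libraries and from -0.41 to 0.22 for the other pairs. With 3 libraries per group these deviations sum to 0 in each group, so the correlations depend on each other and cannot decide it. With a replicate block, 6794 genes were called, 3299 higher and 3495 lower, and 6 of the 10, Igf2r being added. With limma on log2(TPM + 1), added after seeing the data, the Igf2bp1 difference reversed to 0.35. With counts per kilobase, the dKO minus WT share moved from -4.10 to -12.1 percentage points for Igf2bp1, from 3.14 to 10.1 for Igf2bp2 and from 0.963 to 2.03 for Igf2bp3; these counts use a fixed length. For other named genes, 366 values kept their direction and call and 26 lost the call; of the list counts, 315 stayed within 1.5 times and 45 did not. The count of Irs1, 47 to 98 per library, limits what could be detected for it.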

Other observations

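IGF2R also carries lysosomal enzymes tagged with mannose 6-phosphate. Of 15 genes of that sorting route, all tested, 2 were higher in dKO, 4 were lower and 9 were not called, with a median log2 fold change of 0.04. Ctsb, the protease cathepsin B, fell from 128 ± 7.64 to 58.0 ± 4.21 CPM (log2 fold change -1.14); it lies on chromosome 14. Lamp1, a lysosomal membrane protein, fell by 0.54, and M6pr, the smaller mannose 6-phosphate receptor, by 0.29. The M6pr call was lost in 6 of 12 alternatives, without WT replicate 1 (edgeR adjusted p = 0.0558) and without dKO replicate 1, 2 or 3 (0.0735, 0.0956 and 0.0682) among them. The number called in the list ran from 3 without dKO replicate 1 or 2 to 10 with the replicate block. Over all tested genes, 34.3% were called.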
